A study of Notophthalmus viridescens with 12 samples.

Results

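An adult newt can rebuild its lens from the dorsal iris once the old lens has been taken out. The new lens comes from pigmented epithelial cells of the dorsal iris, which lose their pigment, re-enter the cell cycle and become lens cells, a change of cell identity known as transdifferentiation. The first hours after such an injury are the time of early-response transcription, acute inflammation and the first signals to nearby cells, and they come well before the iris cells divide. The comparison described here asks which transcripts of the dorsal iris differed at 6 h post-lentectomy (hpl), that is, 6 h after surgical removal of the lens, from the iris of intact eyes.

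The comparison rested on 6 of 12 RNA-seq libraries, 3 from dorsal irises at 6 hpl and 3 from intact dorsal irises. Lenses were taken out under tricaine anaesthesia. The other 6 libraries came from 1 and 4 days post-lentectomy (dpl) and served here for the estimate of spread and for a look at later levels. All animals were adult, wild-caught *Notophthalmus viridescens*, the eastern newt. Each library was a pool of the dorsal irises of both eyes of 3 or 4 animals, so that values are averages over animals. Tested transcripts had a value of 1 or more in 3 or more of the 6 libraries. This kept 851644 of the 856451 assembled transcripts of the table, and 4807 were left out, 211 of them at 0 in all 6 libraries.

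Values are a normalised abundance signal per assembled transcript, and differences are given as 6 hpl minus intact after taking log2(value + 1). Adding 1 makes the change of a low transcript look smaller than it is. Transcripts are known by ID only. The table gives no gene name for an ID, so no gene, pathway or cell type marker could be looked up, the tissue label could not be checked against markers, and no role can be given to any transcript below. The table holds no sequence, and none is shown. An ID is not a gene, since several IDs may be pieces or isoforms of 1 gene. The read depth behind a value is not in the table.

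The libraries of 6 hpl and intact iris had overlapping sums and numbers of detected transcripts, and they separated in the overall pattern of values. Sums of values ranged from 33349931 to 40114195 at 6 hpl and from 31707275 to 36168005 in intact iris, and the median over tested transcripts from 8.46 to 8.51 at 6 hpl and from 8.23 to 8.56 in intact iris. The number of transcripts at 1 or more averaged 830449 ± 5201 at 6 hpl and 826386 ± 5657 in intact iris (SD, n = 3 each, exact two-sided permutation test, p = 0.5). The 100 highest transcripts of a library held 21.4% ± 1.26 of the sum at 6 hpl and 21.1% ± 3.59 in intact iris (SD, n = 3 each, exact two-sided permutation test, p = 0.9), and this small difference changed sign without 6 hpl replicate 3, intact replicate 1 or intact replicate 2. The smallest p that 3 libraries against 3 allow is 0.1. Replicates were closer to each other at 6 hpl, where Pearson's r across transcripts ranged from 0.828 to 0.840 over 3 pairs, than in intact iris, where it ranged from 0.743 to 0.813 over 3 pairs. Over the 9 pairs of a 6 hpl and an intact library it ranged from 0.640 to 0.751. These r run across transcripts, which are not independent, and are given as a description. The first principal component of the 6 libraries held 40.9% of the variance, with scores from 375 to 473 at 6 hpl and from -648 to -226 in intact iris, where intact replicate 1 lay farthest out.

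A small part of the transcripts differed between 6 hpl and intact iris, and most of these were higher after lentectomy. By limma with Benjamini-Hochberg adjustment at 0.05, 23685 of the 851644 transcripts were called (2.78%), of which 17617 rose (2.07%) and 6068 fell (0.713%). Thus 74.4% of the calls were higher at 6 hpl, whereas 49.5% of all tested transcripts had a positive difference. The higher calls had a median difference of 2.49 and ranged from 1.07 to 9.32. The lower calls had a median of -2.54 and ranged from -8.07 to -1.16. In bulk tissue a change in the RNA of a cell and a change in the number of cells that hold it cannot be told apart. An unadjusted p under 0.05 was found for 131754 transcripts, 79333 higher and 52421 lower. The values of the groups did not overlap in 23.0% of the tested transcripts, 108487 higher and 87793 lower, so that most of the transcripts with separated groups were not past the threshold of the test. Separation of 3 libraries from 3 has an exact two-sided permutation p of no less than 0.1. Where libraries are exchangeable, separation is thus expected in a share of about 0.1 of transcripts without a true difference, beside the 23.0% found. Which of the separated transcripts truly differ cannot be read from separation alone.

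The share of rising transcripts among the calls was larger the stricter the call. At an adjusted p under 0.01 it was 86.7% of 8261 transcripts, under 0.001 it was 95.3% of 2755, and of the 256 transcripts under 1e-06 all were higher at 6 hpl. The same held for size. A difference of 4 log2 units or more was found in 1212 higher and 299 lower calls, and one of 6 units or more in 101 higher and 5 lower calls. When the test asked for a change of more than 2-fold (limma's treat, adjusted p under 0.05), 2951 transcripts passed (0.347%), 2719 higher (0.319%) and 232 lower (0.0272%), or 92.1% higher. Their differences began at 2.30 for the higher and at -2.81 for the lower ones. Of the 2951, 1659 had IDs beginning with 3 or 4 (1640 higher) and 275 had IDs beginning with 1 or 2 (104 higher). The other 1017 had IDs beginning with 5 to 9 (975 higher). The higher share in the 2-fold test was 78.5% without 6 hpl replicate 1 (1266 higher and 347 lower). It was 84.2% without replicate 1 of both groups, and 89.2% to 96.9% under the other alternatives. The standard error of a difference had a median of 0.54 log2 units over all tested transcripts. The smallest difference called at all was 1.07, so that lesser changes were not detectable here. Many larger differences were not called either. Of 33521 tested transcripts with a difference of 2 log2 units or more in either direction, 18352 were called.

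**Figure D1:**
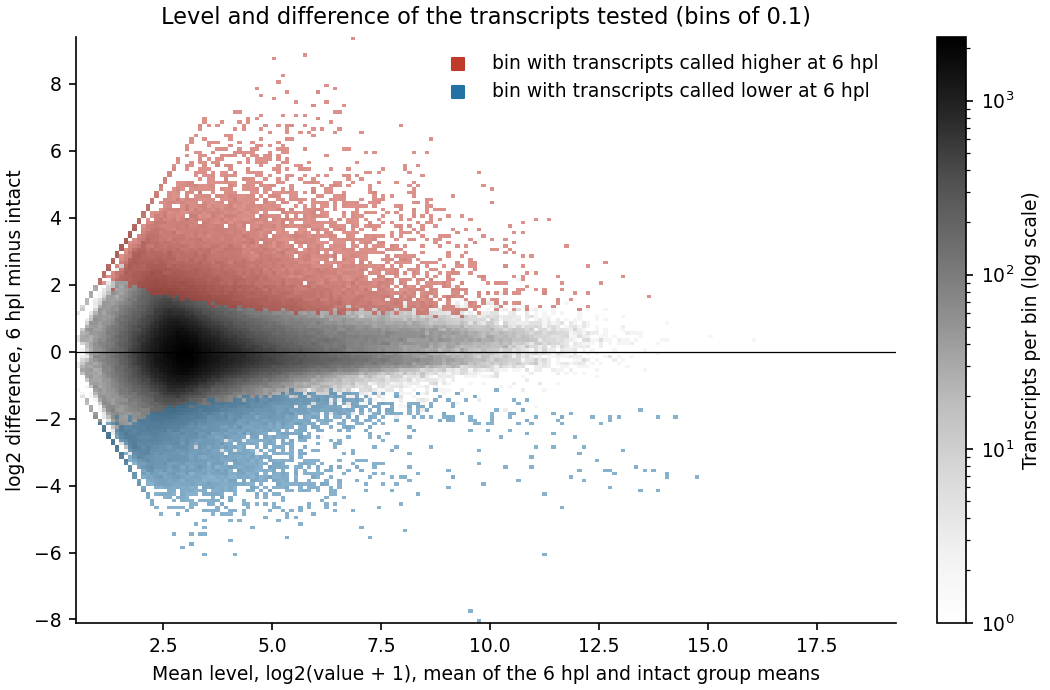
Mean level (horizontal axis, log2(value + 1), mean of the 6 hpl and intact group means) against the log2 difference of 6 hpl minus intact (vertical axis) in bins of 0.1, with grey shading for the number of tested transcripts on a log scale. Red bins hold transcripts called higher (17617) and blue bins transcripts called lower (6068), and the red area reaches 9.32 while the blue area ends at -8.07.

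These numbers changed with the libraries included and with the scaling, and the direction differed between classes of IDs, from 13.6% higher calls among IDs beginning with 1 or 2 to 96.3% among those beginning with 3 or 4. Without 6 hpl replicate 1, 2 or 3 the calls numbered 10750, 10906 and 9146. Without intact replicate 1, 2 or 3 they numbered 12430, 14339 and 19739. Each of these settings has less data, and how much of the drop is due to that was not tested. Transcripts past the 2-fold test numbered 1613, 1751 and 1599 without the 6 hpl replicates in the same order, and 1888 without intact replicate 1. When libraries were scaled on the abundant transcripts, 63.3% of 19929 calls were higher, against 74.4% as deposited, with the median of all tested transcripts moved to -0.17 log2 units, and with equal library totals it moved to -0.15. More calls were higher than lower under each of the 22 alternatives run.

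Calls were found at all levels of abundance, and the split between rising and falling transcripts was not the same at all of them. Classes were made by the mean of the 6 hpl and intact group means in log2 units. Below 3, where values are under 7, between 2.07% and 3.18% of a class was called, and between 4 and 8, where values run from 15 to 255, it was between 4.15% and 4.99%. In the classes from 6 to 8 and from 8 to 10, 81.9% of 1596 and 83.8% of 414 calls were higher. At 10 or more, where values are over 1023, the calls were 73 higher and 65 lower of 3087 transcripts (52.9% higher), although the median difference of all transcripts in that class was 0.33. This near even split was not stable. The higher share was 46.2% of 173 calls with scaling on abundant transcripts and 84.0% of only 25 calls with a pseudocount of 0.01. It was 19.5% of 77 calls without replicate 1 of both groups and 37.8% of 119 calls without 6 hpl replicate 1.

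Among the most abundant transcripts, lower calls outnumbered higher ones. Of the 10 most abundant transcripts by this mean none was called, and none had an unadjusted p under 0.05. Of the 100 most abundant, 6 were called and all 6 fell. Of the 1000 most abundant, 55 were called, 18 higher and 37 lower. These counts at the top were not recomputed under other scalings. Library preparation included a step meant to reduce overrepresented transcripts, and its part in the levels of abundant transcripts was not tested.

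**Figure D2:**
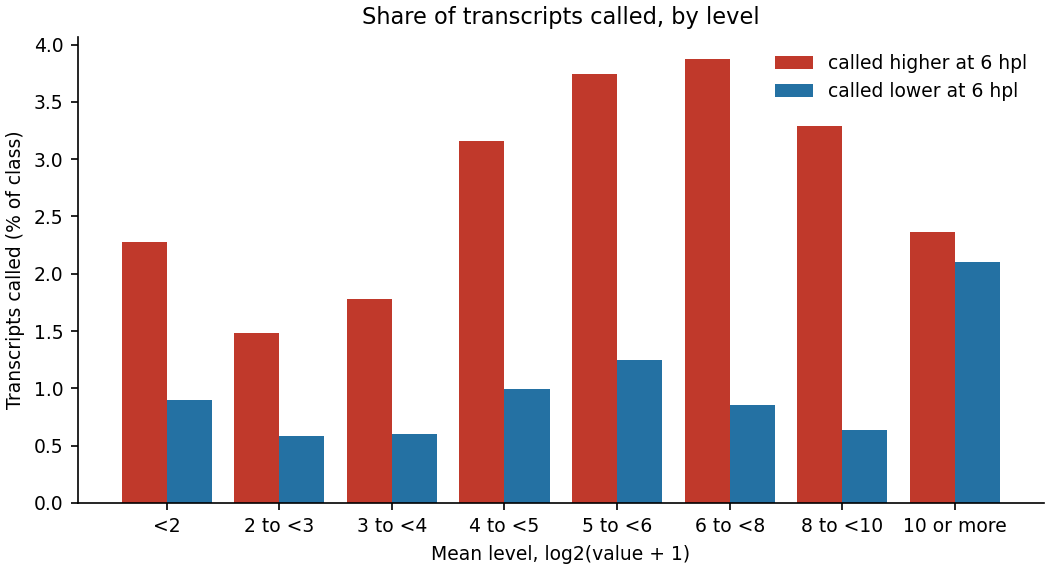
Share of the tested transcripts called higher (red) and lower (blue) at 6 hpl, in percent of each class of mean level on the log2(value + 1) scale. Red exceeds blue by the most from 6 to 10, and at 10 or more the bars are nearly equal (2.36% and 2.11%).

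The rising transcripts had low medians in intact iris. The intact values had a part in choosing them, so that this is a description. The falling transcripts had similarly low medians at 6 hpl (2.60 to 4.18). In the 6 hpl libraries the 17617 higher calls had medians of 29.8, 25.4 and 26.3, against 3.33, 3.99 and 4.06 in the intact libraries, where the median of all tested transcripts was above 8. They made up 5.25%, 4.73% and 4.75% of the summed values at 6 hpl and 0.832%, 1.10% and 1.04% in intact iris. The gain was spread over many transcripts, as the 10 highest of them held between 7.17% and 7.79% of the set's sum at 6 hpl. Of all tested transcripts 1183 were listed at 0 in all 3 intact libraries, and 791 of these were called, with means at 6 hpl from 3.38 to 143 and a median of 10.4. Such transcripts passed the filter through the 6 hpl libraries and so had to differ, and a listed 0 is not proof of absence.

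The falling transcripts went the other way, with medians of 4.18, 2.81 and 2.60 in the 6 hpl libraries and 33.2, 20.8 and 20.01 in the intact libraries. Their share of the summed values was 1.33%, 0.449% and 0.392% at 6 hpl and 6.51%, 4.07% and 3.62% in intact iris. Here 1 library of each group stood apart from its replicates, 6 hpl replicate 1 on one side and intact replicate 1 on the other, both with more of these transcripts. Intact replicate 1 was at least 10 times both other intact libraries in 634 of the 6068 lower calls (10.4%), and in 0.427% of all tested transcripts. The other intact libraries were so in 2 and 0 of the lower calls. Lower calls numbered 2220 without intact replicate 1, but other libraries had as much weight, with 1589 lower calls when 6 hpl replicate 3 was left out, 2065 when 6 hpl replicate 2 was and 2453 when intact replicate 2 was. They numbered 3352 without 6 hpl replicate 1, and 1057 without replicate 1 of both groups, a setting with 3636 higher calls. At 0 in all 3 libraries of 6 hpl were 1292 tested transcripts, of which 297 were called, with intact means from 3.81 to 353. These passed the filter through the intact libraries.

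Within each intact library, its own 10 highest lower calls held 36.5% to 37.8% of the summed values of the lower calls. The 10 lower calls with the highest mean in intact iris had 533.7 to 42124 in the 6 hpl libraries and 16146 to 142770 in the intact libraries. Their log2 differences ran from -4.20 to -1.93, with a median of -3.70. Together they made up 0.558%, 0.0672% and 0.0796% of the summed values at 6 hpl and 2.39%, 1.43% and 1.26% in intact iris. In 9 of the 10, 6 hpl replicate 1 was the highest and replicate 2 the lowest of the 6 hpl libraries, which over all lower calls was so in 51.0% for replicate 1 and 29.0% for replicate 2. The ratio of replicate 1 to the next highest 6 hpl library had a median of 8.16 over the 10 transcripts and reached 12.03. In the same 9, each 1 dpl library lay below each intact library, as in 81.5% of all lower calls, and each 4 dpl library lay above each 6 hpl library, as in 37.7%. In 6 of the 10 the 4 dpl mean was above the intact mean, as in 8.54% of all lower calls. The highest of the 10 had 142800, 91550 and 82640 in the intact libraries. Its values were 42120, 2087 and 5426 at 6 hpl, then 3364, 5307 and 3213 at 1 dpl, then 92060, 153800 and 96900 at 4 dpl. Most of these abundant transcripts thus had the same order of groups and of 6 hpl pools. Whether the dissection, the share of a cell type or regulation set these levels was not tested.

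The 10 highest of the rising transcripts behaved in a less uniform way. They had 5070 to 27878 in the 6 hpl libraries and 77.4 to 10353 in the intact libraries, with log2 differences from 1.31 to 3.98. In 2 of the 10, 6 hpl replicate 1 was the highest of its group, and in 4 replicate 2 was the lowest, with 45.8% and 41.8% over all higher calls. In all 10 the 1 dpl mean was below the 6 hpl mean, and in 7 the 4 dpl mean was, with 86.3% and 87.1% over all higher calls.

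The libraries of 1 and 4 dpl, which had no part in choosing the calls other than in the estimate of spread, show what levels the same transcripts had later. The medians of the higher calls lay between 3.33 and 4.06 in the intact libraries, between 25.4 and 29.8 at 6 hpl, between 12.2 and 16.2 at 1 dpl, and between 10.8 and 12.002 at 4 dpl. Their share of the summed values was 0.832% to 1.10% in intact iris, 4.73% to 5.25% at 6 hpl, 3.73% to 4.603% at 1 dpl, and 3.001% to 3.31% at 4 dpl. The rising transcripts therefore had lower levels at 1 and 4 dpl than at 6 hpl, and no later library was within the intact range. These transcripts were chosen for high values at 6 hpl, so that their lower later levels are a description and no test.

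Taken as a whole, the lower calls, like the higher calls, had medians at 1 and 4 dpl that lay between those of 6 hpl and intact iris. This did not hold in each class of IDs, as given below. Their medians were 20.01 to 33.2 in intact iris, 2.60 to 4.18 at 6 hpl, 4.30 to 4.94 at 1 dpl, and 6.50 to 7.54 at 4 dpl, with no overlap between the 4 dpl and intact medians. These transcripts were chosen for high intact values and low 6 hpl values, so that later levels between the 2 are a description too. Of the 6068, 4402 had IDs beginning with 1 or 2, a class whose medians over all tested IDs were also highest in intact iris. The share of all 6068 in the summed values, by contrast, was 3.62% to 6.51% in intact iris, 0.392% to 1.33% at 6 hpl, 0.493% to 0.996% at 1 dpl, and 2.29% to 4.16% at 4 dpl, where it overlapped the intact range. The 10 abundant transcripts described above made up 1.10% to 2.11% of the sum at 4 dpl. Without these 10 the share of the other 6058 was 2.35% to 4.12% in intact iris and 1.18% to 2.05% at 4 dpl, and the 2 ranges did not overlap.

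**Figure D3:**
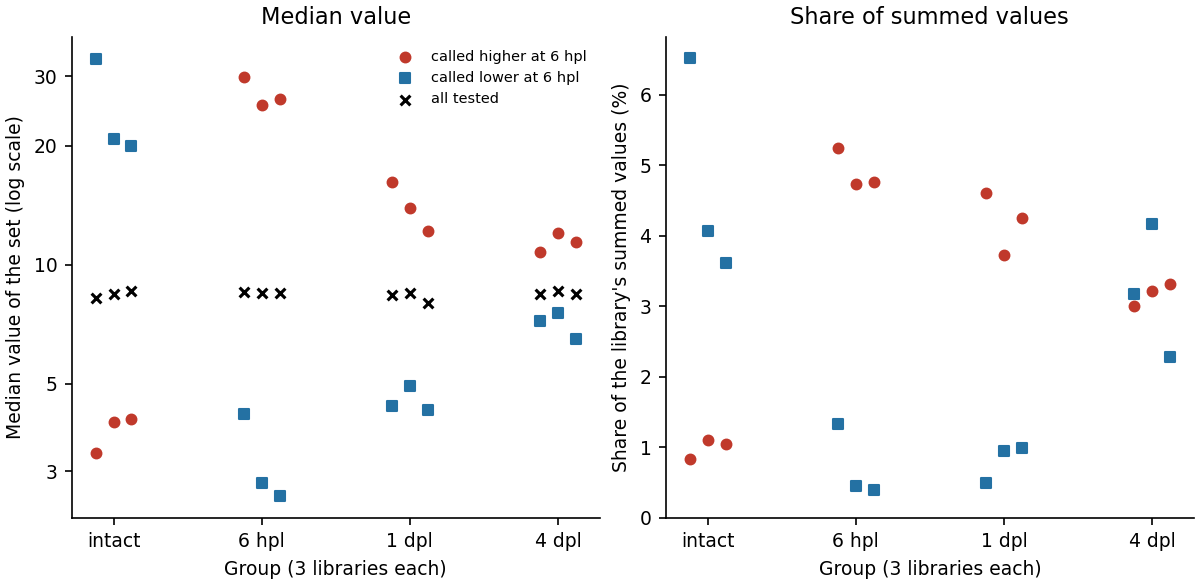
Median value (left, log scale) and share of the library's summed values (right, percent) of the transcripts called higher (red circles) and lower (blue squares) at 6 hpl, with the median of all tested transcripts as black crosses. Each point is 1 library, in the order intact, 6 hpl, 1 dpl and 4 dpl, and at 4 dpl the lower calls are near the intact range in summed share (2.29% to 4.16%) but not in median value (6.50 to 7.54).

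The transcripts that passed the 2-fold test had larger steps. The 2719 higher ones had medians of 3.34 to 4.04 in intact iris, 61.8 to 84.6 at 6 hpl, 25.7 to 39.8 at 1 dpl and 15.96 to 18.3 at 4 dpl. The 232 lower ones had medians of 51.4 to 88.6 in intact iris, 1.88 to 5.45 at 6 hpl, 2.16 to 3.50 at 1 dpl and 11.4 to 14.6 at 4 dpl. The 1 dpl medians of the lower ones thus lay within their 6 hpl range, unlike those of all lower calls. The top of that range came from 6 hpl replicate 1 (5.45). The 1 dpl medians all lay above those of 6 hpl replicates 2 and 3 (1.88 and 2.03). The summed share of the 232 was 0.475% to 1.32% in intact iris, 0.0105% to 0.129% at 6 hpl, 0.0172% to 0.0388% at 1 dpl, and 0.395% to 0.861% at 4 dpl, which overlapped the intact range. That share rested on few transcripts. The 10 highest of each library held 87.4% to 90.7% of the set's sum in intact iris and 95.1% to 96.3% at 4 dpl. The medians of the set did not overlap between these groups.

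The direction of a call went with the first digit of the transcript ID. An ID is a digit from 1 to 9 joined to a longer number, and what the digit stands for is not given in the sources used here. Reads of each condition were assembled separately before the assemblies were merged, and whether the digit marks the assembly a transcript came from was not tested. IDs beginning with 1 had a median value of 7.75, 7.67 and 7.53 in the 6 hpl libraries, against 12.1, 12.003 and 12.3 in the intact libraries. For digit 3 the medians were 11.7, 11.3 and 11.5 at 6 hpl and 7.13, 7.66 and 8.01 in intact iris. The groups did not overlap for digits 1 to 5 (exact two-sided permutation test over libraries, p = 0.1 for each, the smallest 3 against 3 allow), and they overlapped for digits 6 to 9. Digit 2 went with digit 1 and digit 4 with digit 3, with smaller distances. For digit 5 the 6 hpl medians of 7.87, 7.996 and 7.93 were only just above the intact medians of 7.69, 7.81 and 7.84. Other digits were high at later times. Over all tested IDs, digit 5 had medians of 11.6 to 12.2 in the 1 dpl libraries and digit 7 had 11.4 to 12.2 in the 4 dpl libraries, and digits 1, 3, 5 and 7 thus each had their highest medians in a different group. Counts of higher and lower calls therefore include transcripts of classes that differ as a whole between the groups.

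For digits 1 to 4 the calls followed these shifts. Digits 5 to 9 together had a median difference of -0.03 over their tested transcripts, although most of their calls were higher. Of 5095 calls with digit 1 or 2, 13.6% were higher at 6 hpl, of 11844 with digit 3 or 4, 96.3%, and of 6746 with digits 5 to 9, 81.8%. Among tested transcripts, digits 1 or 2 held 216999, digits 3 or 4 260056 and digits 5 to 9 374589. Digits 3 or 4 thus gave 11407 of the 17617 higher calls, and digits 1 or 2 gave 4402 of the 6068 lower ones. When only IDs with digits 5 to 9 were tested, 4964 were called, 4256 higher and 708 lower (85.7% higher). That subset leaves out digits 1 and 2, whose medians were highest in intact iris, and digits 3 and 4, whose medians were highest at 6 hpl. It keeps digits 5 and 7, whose medians were highest at 1 and 4 dpl. Since it is itself made of ID classes, it cannot show a direction that is free of them. Digits 3 or 4 had between 91.7% and 98.9% higher calls over all alternatives that included them. Digits 1 or 2 had between 8.61% and 25.0%, except that among abundant transcripts tested alone 58.1% of their calls were higher. The part of the ID classes in the counts over all transcripts was not tested further.

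**Figure D4:**
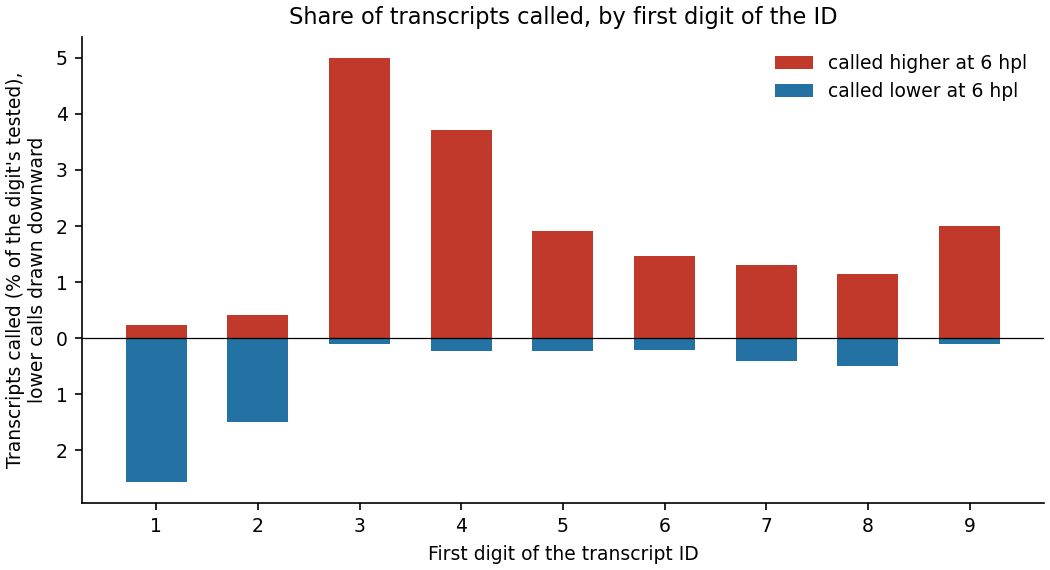
Share of the tested transcripts called higher (red, upward) and lower (blue, downward) at 6 hpl, in percent of the tested IDs with each first digit. Digit 3 has 4.999% higher and 0.111% lower calls, digit 1 has 0.232% higher and 2.56% lower calls, and digits 4 to 9 have more higher than lower calls.

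Later levels of the calls also went with the digit, as did those of all tested IDs. Over all tested IDs, digit 7 had medians of 6.92 to 7.18 in intact iris and at 6 hpl and of 11.4 to 12.2 at 4 dpl, so that the values of the calls are no trait of theirs alone. For higher calls with digits 3 or 4 (11407 transcripts) the medians were 24.3 to 28.7 at 6 hpl, 9.96 to 13.2 at 1 dpl and 8.98 to 9.91 at 4 dpl. For digits 5 or 6 (3243) they were 24.8 to 29.3 at 6 hpl, 17.0 to 23.2 at 1 dpl and 12.1 to 14.0 at 4 dpl, and for digits 7 or 8 (2149) 28.4 to 31.2, 18.3 to 22.6 and 20.4 to 22.5 at the same 3 times. The intact medians of these classes lay between 3.11 and 4.46. The 4 dpl levels thus lay apart between these classes of IDs. At 1 dpl the ranges of digits 5 or 6 and digits 7 or 8 overlapped, and both lay above that of digits 3 or 4. These differences were not tested. The falling transcripts with digits 7 or 8 (786) had medians of 14.5 to 17.6 in intact iris, 1.60 to 2.98 at 6 hpl, 3.18 to 3.86 at 1 dpl and 13.3 to 14.5 at 4 dpl, whereas those with digits 1 or 2 (4402) had 19.8 to 34.5, 2.50 to 4.00, 4.02 to 4.62 and 5.16 to 6.12.

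The 2 transcripts that rose most and the 2 that fell most are given in full. They were taken from 1679 higher and 524 lower calls with a mean of the group means of 100 or more and no overlap between the groups. Transcript 8_64795127 had 3503, 3093 and 2326 at 6 hpl, against 3.59, 3.01 and 4.22 in intact iris. Its means were 2974 ± 597 and 3.61 ± 0.603 (SD, n = 3 each), a log2 difference of 9.32 (SE 0.31, limma adjusted p = 5.846e-12), the largest of all calls. It had 2368, 1355 and 1471 at 1 dpl and 758, 1095 and 992 at 4 dpl, so that it remained far above its intact level in all later libraries.

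Transcript 3_19244126 had 1127, 1130 and 1120 at 6 hpl, against 2.03, 1.39 and 1.17 in intact iris. The 6 hpl mean of 1126 ± 5.33 (SD, n = 3) shows hardly any spread between the pools. The log2 difference was 8.81 (SE 0.43, limma adjusted p = 1.543e-09). At 1 dpl it had 28.7, 11.6 and 24.7, with 7.48, 4.01 and 2.15 at 4 dpl, lower than at 6 hpl but still above all 3 intact libraries. Both rising transcripts were low before lentectomy, with non-overlapping intact values and means of 3.61 for 8_64795127 and 1.53 for 3_19244126, and their later courses were unlike, with a much larger drop by 1 dpl in 3_19244126 than in 8_64795127.

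Transcript 7_56053696 had 5714, 3.73 and 4.93 at 6 hpl, against 8000, 19391 and 20158 in intact iris. The groups did not overlap, but 6 hpl replicate 1 was near the intact level and far from its replicates. The log2 difference was -8.07 (SE 1.56, limma adjusted p = 0.00636). It was -11.43 without 6 hpl replicate 1, and -6.47 and no longer past the threshold without 6 hpl replicate 3 (limma adjusted p = 0.0549) and -8.27 with a pseudocount of 0.01 (limma adjusted p = 0.0701). At 1 dpl it had 6.13, 5.59 and 1.80, with 33262, 51102 and 33830 at 4 dpl, above all intact libraries.

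Transcript 1_2965039 had 13.9, 303 and 29.7 at 6 hpl, against 20793, 5945 and 12336 in intact iris. The log2 difference was -7.80 (SE 0.98, limma adjusted p = 0.0001036), and here replicate 2 was the highest at 6 hpl. It had 25.3, 69.8 and 833 at 1 dpl and 20806, 11093 and 6985 at 4 dpl, close to the range of the intact libraries. Both falling transcripts, like most of the abundant ones above, were thus low at 1 dpl and high again at 4 dpl. At 6 hpl both falling transcripts were low except for replicate 1 of 7_56053696, and the order of the 6 hpl pools was not the same in both.

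**Figure D5:**
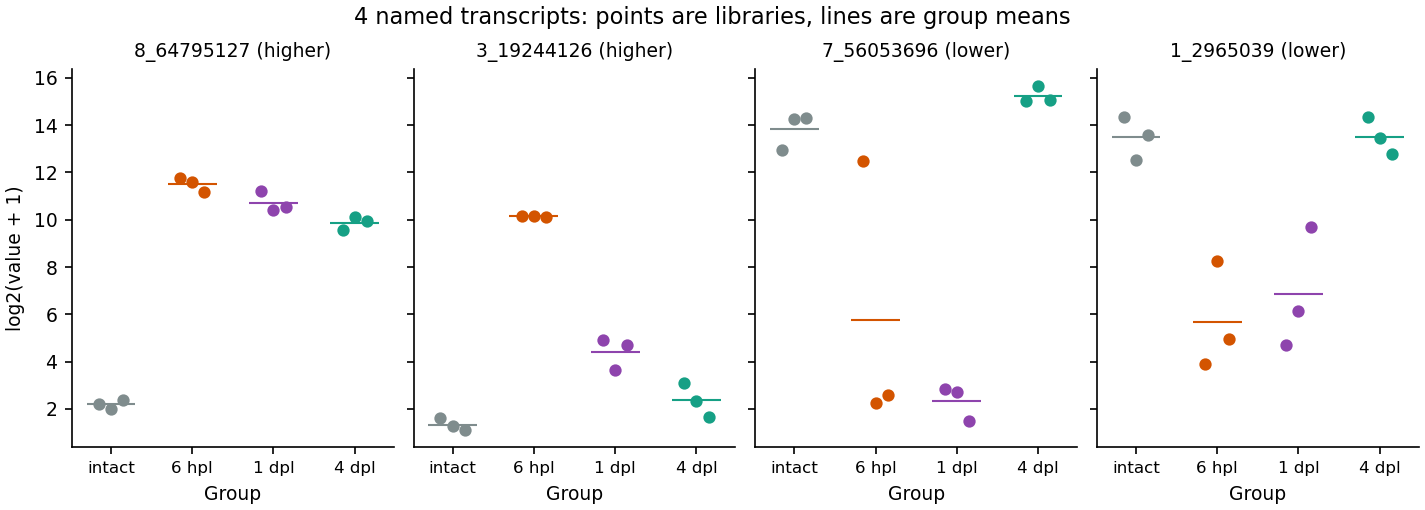
Values of the 4 named transcripts on the log2(value + 1) scale in 12 libraries, in the order intact, 6 hpl, 1 dpl and 4 dpl, with a point for each library and a line for each group mean. Transcripts 8_64795127 and 3_19244126 rose at 6 hpl by 9.32 and 8.81 log2 units, and 7_56053696 (difference -8.07) has 1 library of 6 hpl, at 5714, near the intact level.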

How the data were processed

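Dorsal iris RNA was sequenced by the authors from pools of animals. Libraries were made from total RNA, with a RiboFree step meant to reduce overrepresented transcripts. Reads were trimmed with Trim Galore, ribosomal reads were removed with Bowtie2 against Silva, Trinity assemblies of each condition were merged with DRAP, and abundance per transcript was estimated with Salmon and averaged over inferential replicates. No genome was used, and tool versions are not given in the sources used here. Deposited values are taken as a normalised signal. The authors call them TPM, but libraries sum to between 27737613 and 40770545, so how they were scaled is unknown, and a change common to nearly all transcripts could be hidden by that scaling. Read depth cannot be recovered from such values, and no counting intervals were computed.

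Values were transformed as log2(value + 1). Group means of all 12 libraries were fitted with limma 3.58.1 (variance trend) in R 4.3.3, tables were read by the data.table package (version 1.17.8), and figures were drawn with matplotlib 3.10.9. The contrast was 6 hpl minus intact, two-sided, with Benjamini-Hochberg adjustment over all 851644 transcripts tested, and limma's treat tested for a change past 2-fold. The authors' test (Swish) needs inferential replicates and was not used. Abundant means a mean of the 2 group means of 100 or more. Single values per library were compared by exact permutation tests. The test was tested on simulated data with independent normal noise, and the outcome is not reported here. Changes were planted only in transcripts above a set mean level, so that detection at lower levels was not tested. Those data held no shifts between classes of IDs and no library set apart from its replicates. At most 4 IDs were named, the 2 highest and 2 lowest differences among abundant, called transcripts with no overlap, and the sets of 10 were chosen after their values were seen. The comparison, the filter and the classes were chosen with earlier results of these data known. Alternatives covered pseudocount, filter, scaling, library weights, spread, replicate block and each library left out.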

Additional observations from a re-analysis of the deposited data

How the results depend on the processing

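Of 22 alternatives 10 gave a number of calls within 1.5 times the 23685 reported, and all kept a majority of higher calls. Pseudocounts of 0.1 and 0.01 gave 13677 and 10562 calls, 13358 and 10106 of them the same transcripts in the same direction. Library weights gave 43359, with 23637 of the reported calls among them. Scaling each library to a total of 1000000 left 90944 transcripts to test and 7774 calls, and testing the 34417 abundant ones alone gave 1941, with fewer transcripts tested in both. Leaving out 1 library gave 9146 to 19739 calls. IDs with digits 5 to 9 gave 4964, and leaving out replicate 1 of both groups gave 4693, both chosen after the data were seen and both with less data. Of the 2951 transcripts past the 2-fold test, 12 of 21 alternatives kept the number within 1.5 times. It was 1881 with a pseudocount of 5, 559 at totals of 1000000, 4499 with library weights, 1599 to 2480 with 1 library left out, 907 for digits 5 to 9 and 1004 without replicate 1 of both groups. Where data were not reduced, the cause was not tested. The difference in the share of the 100 highest transcripts ran from -0.87 to 2.35 percentage points with 1 library left out.

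Groups share replicate numbers in the labels, but same-numbered 6 hpl and intact libraries did not deviate together (r of -0.01, 0.01 and 0.04), so the numbers were not taken as pairs, and not every sample correlated best with its own number. With a replicate block 22335 transcripts were called and 2921 passed the 2-fold test. The 4 named transcripts kept their direction under all 20 alternatives, and only 7_56053696 lost the threshold, under 2 of them. Limits are 3 pools per group, a read depth per library that the deposited values do not give and the differences between classes of IDs.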

Other observations

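IDs that follow each other in number were called together in a minority of cases, but more often than the share of such calls among all tested. After a higher call, the next tested ID in number order was also a higher call in 8.24% of cases, with 2.07% higher calls among all tested and 3.39% when each call is set against its own first digit. After a lower call the next ID was a lower call in 6.84% of cases, with 0.713% among all tested and 1.66% against its own first digit. Neighbouring IDs share the first digit in nearly all cases. Calls are thus not independent of one another, and the number of genes behind them cannot be read from the table.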
